A study of Ambystoma mexicanum with 12 samples.

Results

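Full thickness skin wounds of axolotls at 14 days post injury (dpi) were compared with uninjured skin, using the 3 arrays whose titles give 14 days and the 3 arrays whose titles give uninjured tissue, out of 12 arrays in the series. All probe sets of the array (called probes here) other than controls were compared, 20035 of 20080. The animals were white axolotls labelled adult. The study's methods describe 2 mm punch biopsies from the body of 2-year-old males, with uninjured skin carrying no wound or treatment and wounds at 2, 14 and 21 dpi left to heal. The other 6 arrays, 3 at 2 dpi and 3 at 21 dpi, entered the fit to estimate the spread and are given beside a result where they place it in time. Axolotls, aquatic salamanders, heal skin wounds without a scar. In vertebrate skin wounds, keratinocytes cover the wound, phagocytes clear debris, and fibroblasts lay down a provisional matrix of fibronectin and tenascin that is replaced by collagen. The timing and order of these steps differ between species. The study describes axolotl keratinocytes as closing the wound before matrix is laid down, and human keratinocytes as closing it later. Collagen chains are hydroxylated and folded in the endoplasmic reticulum, trimmed by proteases outside the cell and crosslinked by lysyl oxidases, while phagocytes break down what they engulf in lysosomes acidified by a proton pump.

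A biopsy holds epidermis, dermis, vessels, blood cells and any muscle below, so fewer cells of a type and less RNA per cell cannot be told apart. The labels disagree on some points. A description label gives 7 days where the title, the source label and the study's methods give 14, and 14 was used. The treatment text of the labels describes a spinal cord injection in animals of 2 to 3 cm with tissue of 10 animals pooled per array, whereas the methods name 3 separate adults, and since the sources differ on pooling an SD here is a spread between arrays. Levels are log2 intensities after robust multi-array average (RMA), and a change is a difference of group means on that scale, tested by limma with p-values adjusted over all 20035 probes and called at an adjusted p under 0.05. With 3 arrays in each group the smallest p of an exact permutation test is 0.1. Of all probes, 1427 were called (7.12%), 914 higher (4.56%) and 513 lower (2.56%), and 513 changed at least 2-fold. Leaving out an uninjured array gave 701 calls for replicate 1, 747 for replicate 2 and 2171 for replicate 3, and leaving out a wound array gave 907 for replicate 2 and 792 for replicate 3. With the arrays of 2 and 21 dpi out of the fit there were 324. Symbols were available here for 8639 genes, each represented by its brightest probe on average over 12 arrays, and 623 of the called probes had none. Of these genes 695 were called (8.04%), 457 higher (5.29%) and 238 lower (2.75%). Before adjustment, 13.1% of genes were higher and 10.5% lower at p under 0.05. The groups did not overlap in any of the 695, nor in 25.1% of all genes. Lower quartiles of the arrays lay between 4.04 and 4.11, and the size of a change that starts or ends there depends on background.

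Part of the collagen genes and part of the genes that process collagen were higher in the wounds. Of 29 collagen genes measured, 9 were higher and none lower by limma (10 and 0 before adjustment, at p under 0.05), and of 28 collagen processing genes 12 were higher and none lower (15 and 0 unadjusted), against 5.29% of all genes higher. The median change was 0.34 for collagens and 0.68 for processing genes, beside 0.01 over all genes. COL11A1, a minor fibrillar chain that nucleates fibrils and is best known from cartilage, had levels of 4.23, 4.57 and 3.85 in uninjured skin and 8.42, 9.37 and 8.74 in the wounds. All 3 wound arrays thus lay above 8 where uninjured skin lay near the lower quartile, a change of 4.63 (standard error 0.25, adjusted p = 1.07e-05 by limma). COL5A1, the chain of collagen V that sets fibril diameter, had levels of 9.43, 8.70 and 9.06 in uninjured skin and 10.81, 11.46 and 10.90 in the wounds (change 2.00, standard error 0.28, adjusted p = 0.00281 by limma). Its partner chain COL5A2 rose by 1.70. COL1A2, a chain of collagen I, the main collagen of dermis, had levels of 10.34, 9.41 and 10.18 in uninjured skin and 11.99, 12.63 and 11.96 in the wounds, a 4.65-fold rise (adjusted p = 0.00397 by limma). The groups did not overlap, and 14 dpi replicate 2 was the highest of the wound arrays for COL11A1, COL5A1 and COL1A2 alike. The probe representing COL1A1, the other chain, did not pass the test (uninjured 11.18, 10.43 and 12.29, wounds 12.65, 12.96 and 12.86, adjusted p = 0.0994), while its second probe was higher by 2.48 (adjusted p = 0.0140). COL3A1, the collagen of young dermis, rose by 1.44, and its call was lost without uninjured replicate 2 or 14 dpi replicate 2 or 3 (adjusted p between 0.0523 and 0.0696). COL7A1, which forms the fibrils that anchor epidermis to dermis, had levels of 8.16, 7.74 and 7.56 in uninjured skin and 9.75, 9.40 and 10.05 in the wounds, with 14 dpi replicate 2 the lowest (change 1.91, standard error 0.31, adjusted p = 0.00653 by limma). COL17A1, a hemidesmosome collagen of basal keratinocytes, and COL8A1, a short-chain collagen, rose by 1.20 and 1.64, and COL28A1, a collagen of nerve sheath in the mouse, by 1.68. Each of these 3 calls was lost without at least 1 array, with an adjusted p of at most 0.0954, 0.0834 and 0.0507. The microfibril chain COL6A3 was not called (change 0.70, adjusted p = 0.54). Nor was COL12A1, a collagen of the fibril surface (uninjured 9.46, 8.72 and 7.58, wounds 8.54, 8.98 and 8.46), whose change of 0.07 became -0.44 without uninjured replicate 3 and -0.09 without 14 dpi replicate 2.

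The processing genes that rose act at several steps of the pathway, while 16 of the 28 were not called. Among those not called were P4HB (-0.10), BMP1 (0.07), LOXL1 (-0.64) and SERPINH1 (0.945, adjusted p = 0.0754 by limma). P4HA1, a prolyl hydroxylase that lets the triple helix form, had levels of 8.24, 8.59 and 8.26 in uninjured skin and 9.97, 10.17 and 9.91 in the wounds, 3.16-fold higher with more than 1 log2 unit between the groups (adjusted p = 0.000122 by limma). The lysyl hydroxylases PLOD1 and PLOD2 rose by 0.93 and 1.80, the chaperones FKBP10, FKBP7 and CRTAP by 1.46, 1.43 and 0.91. TLL1, a protease of the BMP1 family that trims procollagen, had levels of 6.97, 6.60 and 6.68 in uninjured skin and 9.25, 9.61 and 8.98 in the wounds (change 2.53, standard error 0.18, adjusted p = 8.76e-05 by limma). LOXL2, a crosslinking lysyl oxidase, had levels of 8.13, 7.59 and 7.87 against 9.82, 10.17 and 9.80. Both genes had every wound array at least 1 log2 unit above every uninjured array. The secreted protein CTHRC1 had little spread, with 6.74, 6.96 and 6.85 in uninjured skin and 11.49, 11.66 and 11.59 in the wounds (change 4.73, standard error 0.11, adjusted p = 8.67e-09 by limma). PCOLCE2, an enhancer of the procollagen C-protease, rose by 2.51 in the probe with the higher mean, but its second probe fell by 1.57 (adjusted p = 0.0321), so its direction is uncertain. Over the arrays left out in turn the counts of higher genes ran from 6 to 10 for collagens and from 11 to 13 for processing genes.

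Secreted matrix glycoproteins moved in both directions, 8 of 38 higher (21.1%) and 3 lower (7.89%), with a median change of 0.08. KAZALD1, a matrix protein of the insulin-like growth factor binding protein family known from the salamander limb blastema, had the largest rise of all genes with a symbol: 5.98, 4.82 and 6.07 in uninjured skin and 10.69, 10.88 and 10.49 in the wounds, 33.4-fold (adjusted p = 7.0e-05 by limma, standard error 0.34 in log2). Tenascin-C (TNC) had levels of 8.89, 8.70 and 7.32 against 12.12, 12.37 and 12.23, and fibronectin (FN1) 5.94, 6.03 and 5.37 against 8.82, 9.24 and 9.0. In these 3 genes the wound arrays lay closer together than the uninjured arrays. THBS2 and THBS3, thrombospondins that bind collagen and growth factors, rose by 1.88 and 1.17, the fibroblast matrix protein TGFBI by 1.44, and FBN2, the fibrillin of embryonic microfibrils, by 1.85. LAMA1, the laminin chain of embryonic basement membranes, rose from 4.12, 4.12 and 3.80 to 6.16, 7.31 and 6.07 (adjusted p = 0.00243 by limma). For TNC, FN1, THBS2, FBN2 and LAMA1, which have several probes, no other probe of the gene was called. MXRA5, an adhesion protein of the matrix, rose by 3.06, VWDE, a secreted protein known from the blastema, by 3.52, KERA, a keratan sulphate proteoglycan of the cornea, by 1.56, and the membrane-bound collagenase MMP14 by 0.98. The secreted modulators of Wnt signalling DKK3 and SFRP4 rose by 2.87 and 2.72, while the median change over 66 Wnt, FGF, Hedgehog and Notch genes was -0.007. SFRP4 was nearly constant within the groups, with 5.47, 5.47 and 5.10 in uninjured skin and 8.07, 8.08 and 8.04 in the wounds. The 3 lower genes of the list were FBLN5, EFEMP1 and TNXB. Elastic fibre genes of the list did not move as one. EMILIN1, a glycoprotein of elastic fibres, was higher (0.62, adjusted p = 0.0140 by limma), a call lost without uninjured replicate 2. FBN1 (-1.18) and EFEMP2 (-0.14) were not called. FBLN5, which assembles elastin, had levels of 9.24, 9.33 and 8.28 in uninjured skin and 6.74, 7.99 and 5.95 in the wounds (change -2.06, adjusted p = 0.0229 by limma). The elastic fibre protein EFEMP1 changed by -1.58 and the dermal tenascin TNXB by -1.66. These falls depended on single arrays: without uninjured replicate 1 or 14 dpi replicate 3 none of the 3 was called (0 lower by limma, against 7 of the list at an unadjusted p under 0.05 when every array was used), without uninjured replicate 2 or 14 dpi replicate 1 there was 1, and without 14 dpi replicate 2 there were 5.

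**Figure D1:**
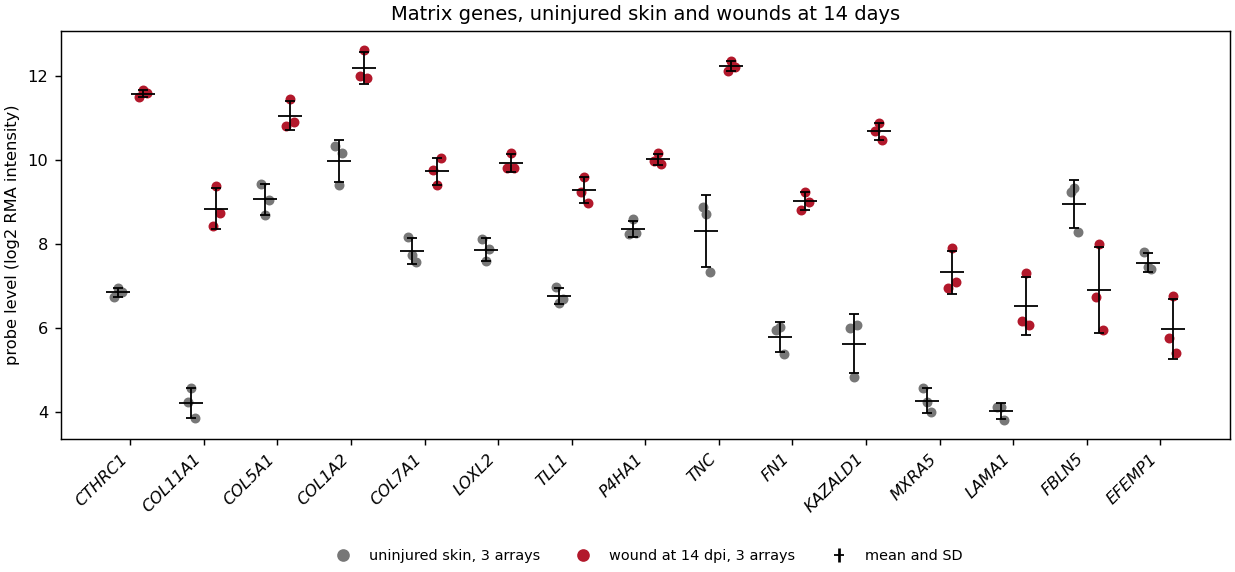
Levels (log2 RMA intensity, vertical axis) of 15 matrix genes in the 3 uninjured arrays (grey) and the 3 wound arrays at 14 dpi (red), with group mean and SD in black. No gene has overlapping groups, and the wound arrays of CTHRC1, KAZALD1 and TNC lie close together, while FBLN5 and EFEMP1 lie lower in the wounds.

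Part of the macrophage genes and part of the lysosome genes were higher in the wounds. Of 24 genes of macrophages and monocytes, limma called 11 higher (45.8%, against 5.29% of all genes) and none lower (14 and 0 before adjustment). Their median change was 0.81, and 13 were not called. Of 60 lysosome genes 23 were higher (38.3%), 1 was lower and 36 were not called, with a median of 0.44. The lists share CTSB, CTSD, CTSZ, LGMN and ACP5. CUBN, an endocytic receptor best known from kidney and gut and a member of neither list, had levels of 4.89, 4.87 and 4.61 in uninjured skin and 9.20, 8.76 and 8.83 in the wounds, 17.6-fold higher (adjusted p = 3.99e-07 by limma, standard error 0.15 in log2). MARCO, a scavenger receptor of macrophages that binds bacteria and debris, had levels of 4.34, 4.66 and 4.98 against 6.84, 7.86 and 7.13. The glycoprotein GPNMB, made by macrophages with full lysosomes and by pigment cells, had levels of 10.76, 10.53 and 10.16 against 12.43, 12.59 and 12.51. For CUBN, MARCO and GPNMB the lowest wound array was more than 1 log2 unit above the highest uninjured array. CYBB, the catalytic subunit of the phagocyte NADPH oxidase, rose by 2.14, C1QC, a chain of complement C1q made by macrophages, by 1.21, and the haem oxygenase HMOX1 by 3.40. LGALS9, a galectin that binds glycans on immune cells, ENTPD1, an enzyme that degrades extracellular ATP, and CXCR4, a chemokine receptor, rose by 2.83, 2.72 and 1.63. AIF1, a cytoplasmic marker of macrophages, and LYZ, lysozyme, rose by 1.15 and 0.82, and their calls were lost without at least 1 array (adjusted p of at most 0.0586 and 0.0852). FABP3, a carrier of fatty acids in the cytoplasm, had levels of 8.65, 8.79 and 7.62 in uninjured skin and 11.19, 10.88 and 10.65 in the wounds (change 2.55, standard error 0.37, adjusted p = 0.00343 by limma). Chosen after their values were seen, the cholesterol exporter ABCA1 rose by 1.96 and the oxysterol hydroxylase CYP7B1 by 1.72. DGAT2, the last enzyme of triglyceride synthesis, rose by 3.48 but lost its call without any 1 of 5 arrays (adjusted p between 0.0560 and 0.0931). Of 36 sterol and fatty acid synthesis genes 3 were higher by limma (8.33%) and none lower (5 and 5 before adjustment), with a median change of -0.08. The 3 were DGAT2, the desaturase SCD and the phospholipase PNPLA8. Leaving out uninjured replicate 1 or 2 or 14 dpi replicate 3 took the 3 to 0. Leaving out replicate 1 or 2 of the wounds took them to 1, with 5 genes lower for replicate 1.

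Within the lysosome list most rises were small. ASAH1, acid ceramidase, had levels of 10.07, 9.96 and 10.09 in uninjured skin and 11.51, 11.70 and 11.47 in the wounds, 2.88-fold higher (adjusted p = 0.000115 by limma). The aspartyl protease CTSD had levels of 10.70, 10.81 and 10.65 against 11.69, 12.02 and 11.79. The arrays of a group lay close together in both genes, and the groups did not overlap. The cysteine proteases CTSB, CTSC, CTSZ and LGMN rose by 0.95, 1.05, 1.55 and 1.26, the serine carboxypeptidase CTSA by 0.96, and the sphingolipid activator precursor PSAP and the cholesterol carrier NPC2 by 0.77 and 0.60. Of 16 proton pump genes in the list 9 were higher, none lower and 7 not called, with changes from -0.17 to 1.40. Among the 9, ATP6V1H, ATP6V1A, ATP6V1D, ATP6V0D1 and the accessory subunit ATP6AP2 rose by 0.89, 0.72, 0.56, 0.75 and 0.91. The gene that went the other way was CTSH, a cathepsin with aminopeptidase activity, with levels of 4.83, 4.20 and 4.79 in uninjured skin and 3.23, 3.67 and 2.51 in the wounds, a fall from just above the lower quartile to below it. The list mean, centred on each gene's mean over 12 arrays, was -0.39, -0.29 and -0.24 in uninjured skin and 0.17, 0.26 and 0.25 in the wounds, without overlap. The counts of higher genes ran from 20 to 26 for lysosome genes and from 9 to 11 for macrophage genes when single arrays were left out. The 16 lymphocyte and antigen presentation genes gave no call by limma (0 at an unadjusted p under 0.05), and of 10 neutrophil and phagocyte oxidase genes CYBB and the oxidase subunit NCF1 were higher, NCF1 losing its call without uninjured replicate 2 or 14 dpi replicate 2 (adjusted p of at most 0.0635).

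Among the genes that fell were growth factor, early response and cytokine signalling genes. PHLDA2, a small membrane-associated protein that restrains growth in the mouse placenta, had levels of 11.31, 10.61 and 10.46 in uninjured skin and 8.03, 7.60 and 7.97 in the wounds, 7.63-fold lower (adjusted p = 0.00285 by limma, standard error 0.41 in log2). The epidermal growth factor family ligand EREG had levels of 11.33, 9.91 and 8.28 against 6.75, 6.86 and 6.87, with a spread of 3 log2 units in uninjured skin and almost none in the wounds (change -3.01, standard error 0.57, adjusted p = 0.0123 by limma). SOCS1, a feedback inhibitor of cytokine receptors, fell from 10.59, 9.81 and 9.60 to 8.22, 8.81 and 8.49. ID2, an inhibitor of basic helix-loop-helix factors that BMP signals induce, fell from 9.37, 8.92 and 9.61 to 7.22, 7.50 and 8.32, with 14 dpi replicate 3 nearest to uninjured skin. NFKBIZ, a nuclear regulator of NF-kB, changed by -0.74, the prostaglandin E synthase PTGES by -3.04 and the immediate early transcription factor EGR1 by -2.47. These last 3 calls were lost without at least 1 array, with an adjusted p of at most 0.0628, 0.0986 and 0.126. The epithelial transcription factor EHF had levels of 9.51, 9.57 and 9.01 against 7.37, 5.83 and 6.81, and the FGF carrier FGFBP1 changed by -2.46, a call lost without uninjured replicate 1 (adjusted p = 0.0588). SLC7A11, the cystine and glutamate exchanger, fell from 6.10, 6.71 and 6.04 to 3.86, 4.34 and 4.15 (4.49-fold, adjusted p = 0.000591 by limma), and the cationic amino acid transporter SLC7A3 changed by -2.05. GNG13, a G protein subunit of taste and olfactory cells, and RELN, a secreted glycoprotein of the nervous system and lymphatics, changed by -3.08 and -1.91. Of 42 cytokine, chemokine and NF-kB genes 5 were higher by limma (11.9%, against 5.29% of all genes) and 4 lower (9.52%, against 2.75%). Before adjustment 10 were higher and 8 lower, and the median change was 0.04. Both counts of calls moved when single arrays were left out. There were 2 higher without uninjured replicate 2 or 14 dpi replicate 2, and 3 higher without uninjured replicate 3 or 14 dpi replicate 3. There was 1 lower without uninjured replicate 1, and 2 lower without 14 dpi replicate 1 or 3. Of 40 genes of the TGF-beta and BMP pathways 6 were higher (15%) and ID2 was lower (2.5%), the receptor TGFBR1 among the higher with 0.83. The 6 were 4 without uninjured replicate 1 or 2 and 3 without any other of the 6 arrays. The Notch ligand JAG1 rose by 1.29 and PRICKLE1, a planar polarity gene, by 1.46. Of 66 genes of the Wnt, FGF, Hedgehog and Notch pathways, however, 5 were higher by limma (7.58%, against 5.29% of all genes). Lower were 2 (3.03%, against 2.75%). Before adjustment 7 were higher and 8 lower, and the median change was -0.007.

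**Figure D2:**
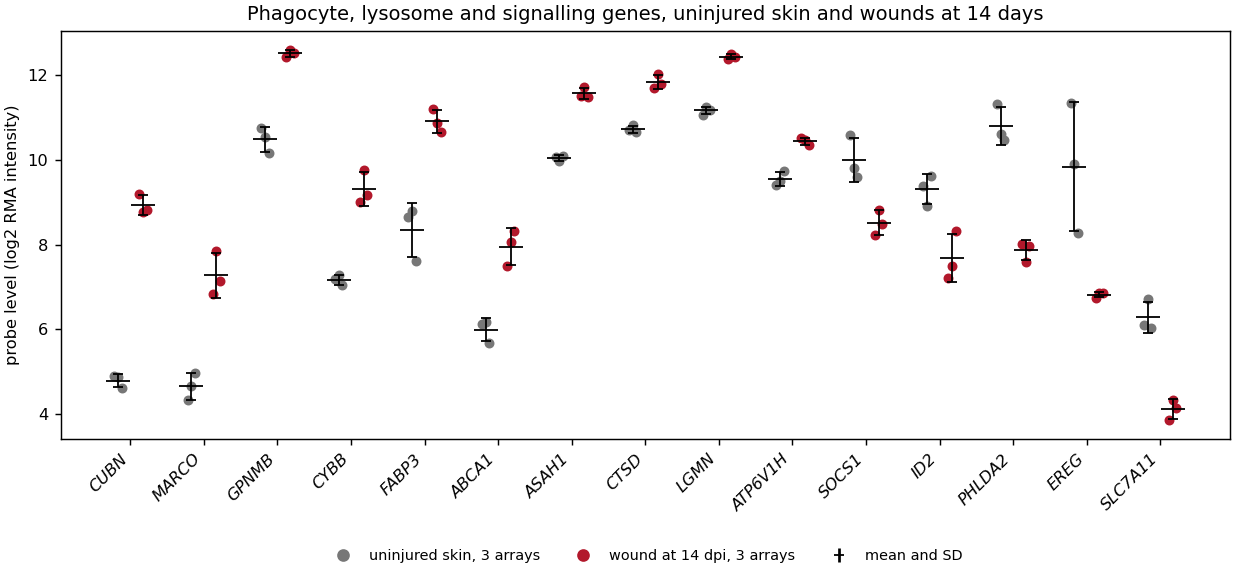
Levels (log2 RMA intensity, vertical axis) of 10 genes that rose, then of 5 genes that fell (SOCS1, ID2, PHLDA2, EREG and SLC7A11), in the 3 uninjured arrays (grey) and the 3 wound arrays at 14 dpi (red), with mean and SD in black. The 10 are phagocyte, lipid and lysosome genes together with CUBN, which was in neither the macrophage nor the lysosome list. CUBN shows the widest separation, and the uninjured arrays of EREG spread from 8.28 to 11.33.

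Genes of DNA replication, mitosis and mitochondrial respiration had medians below 0 in the wounds, with few single genes called. Of 53 replication genes 10 were lower (18.9%), of 76 mitosis and cyclin genes 9 (11.8%) and of 53 respiratory chain genes 7 (13.2%), and none of any of these lists was higher by limma, against 2.75% of all genes lower. At an unadjusted p under 0.05 the counts were 31, 38 and 20 lower and 1, 2 and 0 higher, beside 10.5% lower over all genes. The medians were -0.50, -0.50 and -0.23. POLA2, a subunit of the polymerase that primes DNA synthesis, had levels of 8.12, 8.09 and 7.96 in uninjured skin and 7.23, 6.75 and 7.12 in the wounds, 2.03-fold lower (adjusted p = 0.00112 by limma). The G1 cyclin CCND1 had levels of 9.63, 9.73 and 9.64 against 9.07, 8.98 and 8.85, a small fall with little spread within a group. The phosphatase CDC25A, which drives entry into S phase, fell from 8.62, 8.44 and 7.84 to 7.13, 6.51 and 6.96. POLA2, CCND1 and CDC25A kept their calls without any 1 of the 6 arrays, whereas others did not, among them the helicase subunit MCM7 (change -1.26), the cyclin CCNA2 (-1.20) and the clamp-dependent nuclease FEN1 (-0.74), with an adjusted p of at most 0.0908, 0.0764 and 0.141. Replication genes lower numbered 18 when 14 dpi replicate 1 was left out, 4 for 14 dpi replicate 2, 5 for uninjured replicate 2, and 2 for uninjured replicate 1 or 14 dpi replicate 3. Mitosis genes lower numbered 5 without uninjured replicate 1, 2 without uninjured replicate 2 or 14 dpi replicate 2 or 3, and 27 without 14 dpi replicate 1. The mean of the mitosis list was 0.26, 0.44 and 0.36 in uninjured skin and 0.19, -0.44 and -0.17 in the wounds, so 14 dpi replicate 1 lay near uninjured skin and replicate 2 furthest from it. Of the respiratory chain, cytochrome c (CYCS) fell from 11.62, 11.54 and 11.43 to 10.94, 10.25 and 10.65 and the complex I subunit NDUFB5 changed by -0.52. Respiratory genes lower numbered 3 without uninjured replicate 1 or 14 dpi replicate 3, 2 without uninjured replicate 2 and 4 without 14 dpi replicate 2. LDHB, the lactate dehydrogenase subunit of oxidative tissue, changed by -0.90. The ER chaperone DNAJB9, a target of the unfolded protein response, changed by -1.18, and HSPA5, the main chaperone of that compartment, by -1.40. The HSPA5 call was lost without uninjured replicate 2 or 14 dpi replicate 2 or 3 (adjusted p of at most 0.0693). Of 84 genes of folding and secretion in that compartment 2 were higher and 2 lower (2.38% each way, beside 5.29% and 2.75% of all genes). Their median change was 0.02. None of 58 cytosolic ribosomal protein genes was called by limma (0 at an unadjusted p under 0.05), and their median was -0.07.

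**Figure D3:**
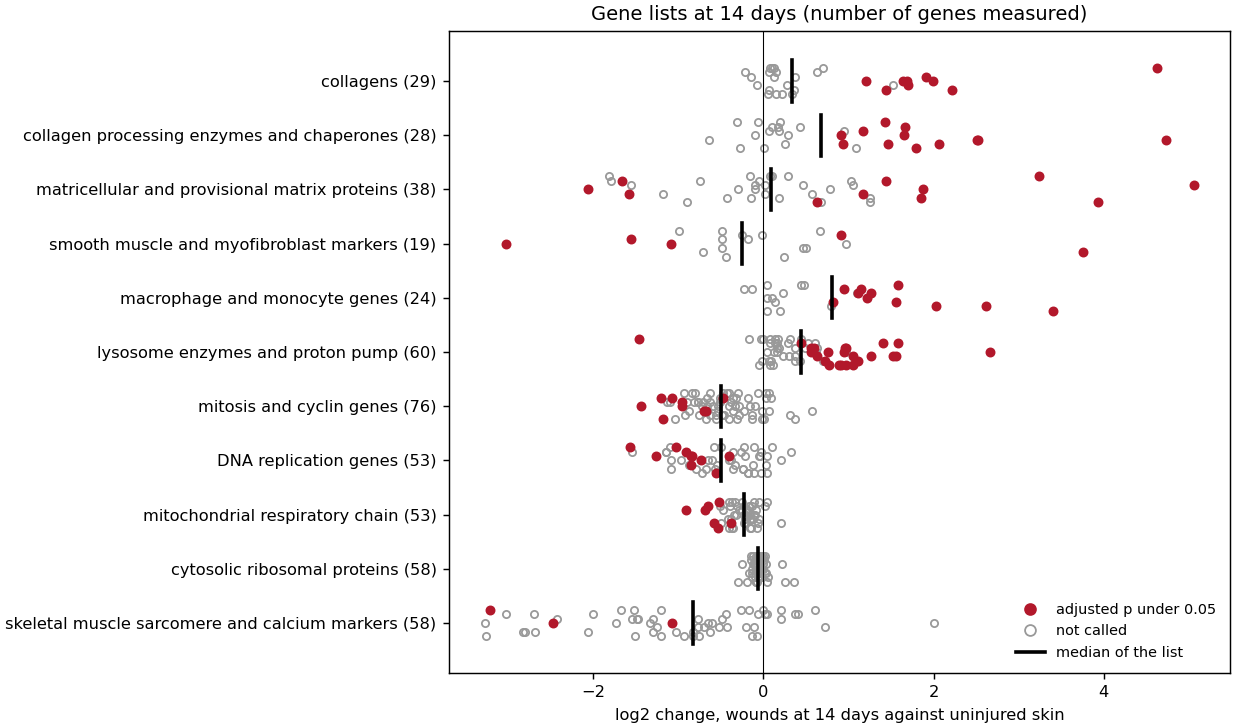
Log2 change at 14 dpi against uninjured skin (horizontal axis) of each measured gene in 11 lists, with called genes in red, other genes as open circles and the list median as a black bar. Medians run from 0.81 for macrophage genes to -0.83 for skeletal muscle markers, where most genes are open circles.

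Skeletal muscle markers differed between arrays of the same group, and some counts changed when their mean was entered as a covariate. The mean of 58 markers was 1.45, 1.43 and -0.62 in uninjured skin and -0.66, 0.74 and -0.90 in the wounds. Uninjured replicate 3 thus lay among the wounds and 14 dpi replicate 2 nearer to the other uninjured arrays. By limma 3 markers were lower (5.17%, against 2.75% of all genes) and none higher (17 and 0 before adjustment), and the median was -0.83. Lower markers numbered 18 when uninjured replicate 3 was left out, 2 for 14 dpi replicate 2 and 0 for any other of the 6 arrays. MYL4, a myosin light chain, had levels of 10.25, 10.98 and 7.66 against 6.49, 7.43 and 5.33, with uninjured replicate 3 apart from its group. The mean of 24 poly-A control probe sets, spiked in before labelling, was lowest in replicate 3 and highest in replicate 2 of both these groups, with 7.59, 8.08 and 6.92 in uninjured skin and 7.07, 8.06 and 6.55 in the wounds. The part of muscle content or labelling in the results was not tested, but each was entered as a covariate. Once the mean of the muscle markers was in the model, 9 collagens, 13 collagen processing, 12 macrophage and 22 lysosome genes were higher and 8 mitosis, 8 replication and 7 respiratory genes lower. With the poly-A control mean, chosen after seeing the data, the counts were 9, 13, 12 and 24 higher and 9, 8 and 9 lower. With the muscle covariate 987 of the 1427 called probes kept their call (69.2%), and other lists moved both ways. Higher genes of desmosomes and tight junctions went from 2 of 24 (8.33%, against 5.29% of all genes) to 0. Those of sterol and fatty acid synthesis went from 3 of 36 (8.33%) to 1. Lower pigment cell genes went from 2 of 11 (18.2%, against 2.75% of all genes) to 0, while higher matrix glycoprotein genes went from 8 of 38 (21.1%) to 12.

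**Figure D4:**
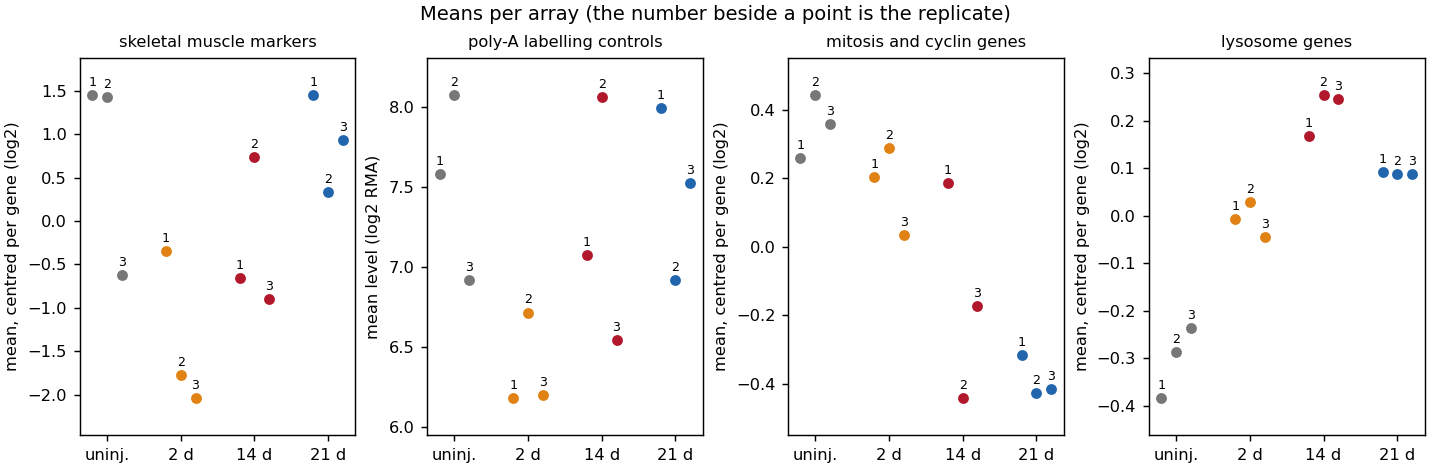
Means per array of skeletal muscle markers, mitosis and lysosome genes (log2, centred on each gene's mean over 12 arrays) and of poly-A labelling controls (log2 RMA level), for uninjured skin (grey) and wounds at 2 (orange), 14 (red) and 21 (blue) dpi. In muscle markers and controls uninjured replicate 3 lies below its group and 14 dpi replicate 2 above it, while the lysosome mean parts the 14 dpi arrays (0.17 to 0.26) from uninjured skin (-0.39 to -0.24).

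Contractile genes outside skeletal muscle did not move as one. CNN1, calponin, a regulator of smooth muscle contraction, had levels of 9.67, 9.17 and 9.11 in uninjured skin and 6.20, 6.94 and 5.73 in the wounds (change -3.03, standard error 0.31, adjusted p = 0.000552 by limma). The myosin light chain MYL9 fell from 7.75, 7.70 and 7.36 to 6.61, 6.56 and 6.36. In contrast PALLD, an actin-bundling protein of stress fibres, rose from 8.46, 7.98 and 6.86 to 11.61, 11.09 and 11.87. ACTA2, smooth muscle actin and a marker of myofibroblasts, was not called (12.30, 11.93 and 11.85 against 10.98, 11.30 and 10.82, adjusted p = 0.125), although its 3 wound arrays lay below the 3 uninjured arrays. Of 19 genes of this list 2 were higher (10.5%, against 5.29% of all genes) and 3 lower (15.8%, against 2.75%). There was 1 higher without uninjured replicate 2 or 3 or 14 dpi replicate 1. Among fibroblast markers vimentin (VIM) rose by 0.56 and the secreted glycoprotein FSTL1 by 1.13. In all, 3 of 22 were higher (13.6%, against 5.29% of all genes) and none lower. The median change of this list was 0.07, with 12 changes above 0 and 10 below. Of 11 basal keratinocyte markers COL17A1 was higher (9.09%, against 5.29% of all genes) and none lower. This share is 1 gene, whose call was lost without any 1 of 5 arrays. Of 25 suprabasal, secretory and barrier markers the transcription factor TFAP2A was higher (change 1.16) and EHF lower. This is a share of 4% each way, beside 5.29% higher and 2.75% lower over all genes. TFAP2A lost its call without uninjured replicate 1 or 2 or 14 dpi replicate 1 or 3 (adjusted p of at most 0.0918 by limma). Mean levels over 12 arrays ran from 3.19 to 11.7 in the first list and from 3.01 to 13.18 in the second. The epithelial adhesion molecule EPCAM (change -0.03) and the keratin KRT8 (0.14) were near 13 on the log2 scale over the 12 arrays and were not called. The sign of these small changes turned when single arrays were left out. TP63, the regulator of basal keratinocytes, was not called (6.69, 6.78 and 7.19 against 7.44, 5.96 and 7.15, change -0.04), and its sign turned without uninjured replicate 3 (0.11) or 14 dpi replicate 2 (0.41). Of 19 endothelial and 16 erythrocyte markers none was called by limma (before adjustment 3 and 1 lower, 0 and 3 higher). Of 11 pigment cell markers 2 were lower by limma (18.2%, against 2.75% of all genes) and none higher. Among the lower, the receptor tyrosine kinase KIT fell from 8.65, 8.13 and 8.40 to 5.71, 7.27 and 6.70. Its call was lost without uninjured replicate 1 or 14 dpi replicate 3 (adjusted p of at most 0.0779). The neuropeptide NPY rose from 3.90, 3.97 and 3.97, below the lower quartile, to 7.34, 6.24 and 5.81.

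Of 34 regulators of progenitor cells 3 were higher (8.82%, against 5.29% of all genes) and 2 lower (5.88%, against 2.75%), with a median change of -0.03. SALL4, a zinc finger factor of embryonic stem cells that the study examined further, had levels of 4.21, 4.19 and 4.19 in uninjured skin, just above the lower quartile, and 5.63, 6.23 and 6.72 in the wounds (change 2.00, standard error 0.31, adjusted p = 0.00486 by limma). Its second probe changed by 0.04 and was not called. The chromatin protein HMGA1 fell from 7.25, 6.71 and 6.92 to 6.21, 6.01 and 6.39, a call lost without uninjured replicate 1 or 14 dpi replicate 2 (adjusted p of at most 0.0562), and the growth regulator MYC fell from 6.07, 6.09 and 5.67 to 4.68, 5.02 and 4.98. LBH, a transcription cofactor of limb bud and heart, rose by 1.44, and lost its call without uninjured replicate 2 or 14 dpi replicate 2 or 3 (adjusted p of at most 0.0767). The count of lower genes was 1 without uninjured replicate 1 or 14 dpi replicate 2.

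In the main fit fewer probes differed between 14 and 21 dpi than between 14 and 2 dpi. Between 14 and 2 dpi 1510 probes were called (7.54%), and between 14 and 21 dpi 34 (0.17%). Leaving out a 21 dpi array changed the second count to 2, 6 and 1 for replicates 1, 2 and 3, and leaving out a 14 dpi array to 471 for replicate 2 and 0 by limma for replicate 1 or 3. It was 5 without uninjured replicate 2, 53 without uninjured replicate 3 and 21 without 2 dpi replicate 2 (with every array and before adjustment, 1185 or 5.91% higher and 856 or 4.27% lower at p under 0.05). With array weights it was 2632, more than the 1753 called between 14 and 2 dpi with array weights, so the order of the 2 counts turned. The array closest to 14 dpi replicate 2 over all probes was 21 dpi replicate 1 (Pearson's r = 0.992). The first count was 825 and 872 without 2 dpi replicate 2 and 3 and 777 without 14 dpi replicate 2. The largest differences from 2 dpi were higher levels of SFRP2, a secreted Wnt modulator of fibroblasts (6.39), and of the collagen VI chain COL6A3 (6.07), genes whose 14 dpi level was near that of uninjured skin (changes 0.79 and 0.70, not called). SFRP2 was 5.19, 3.71 and 4.21 at 2 dpi and 10.20, 11.68 and 10.39 at 14 dpi. Lower at 14 than at 2 dpi were PRG4, a lubricating mucin-like protein (-4.85), and TIMP1, an inhibitor of matrix metalloproteinases (-3.73). PRG4 levels at 14 dpi were 10.49, 5.96 and 9.85, and its call was lost without any 1 of the 2 dpi arrays (adjusted p of at most 0.0670). KAZALD1 levels of 6.31, 5.6 and 5.27 at 2 dpi lay near those of uninjured skin, and levels at 21 dpi (10.36, 10.92 and 10.69) near those at 14 dpi.

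At 2 dpi 10.8% of genes were called against uninjured skin, and 15 genes called at both times moved in opposite directions at 2 and 14 dpi. Of these 15, 5 kept both calls without uninjured replicate 1 or 2, 6 without 2 dpi replicate 3, 7 without 14 dpi replicate 2, 8 without 2 dpi replicate 2 and 9 without 14 dpi or 21 dpi replicate 3, and 4 (FSTL1, LRRC32, THBS2 and THBS3) kept them whichever 1 of the 12 arrays was left out. Of all genes with a symbol, 1 was higher at 14 dpi than in each of the other 3 groups and 0 were lower than in each by limma. This gene was CUBN, with 4.86, 5.16 and 5.11 at 2 dpi and 8.09, 7.81 and 7.75 at 21 dpi (14 minus 21 dpi 1.05, standard error 0.15, adjusted p = 0.0265 by limma). Its 3 arrays at 14 dpi were its highest of the series. CUBN lost this call without 14 dpi replicate 1 or 3, any 21 dpi array or replicate 2 of uninjured skin or 2 dpi (adjusted p between 0.0505 and 0.155), which takes the count of 1 to 0, while without 14 dpi replicate 2 it was 3. SORL1, a sorting receptor of the endosome, had nearby levels at 2 and 14 dpi (6.55, 6.56 and 6.51, then 6.75, 6.45 and 6.61) and lower at 21 dpi (5.88, 6.05 and 5.87). CTSH and MYL9, low at 2 and 14 dpi, were at 21 dpi back at 5.13, 4.78 and 4.89 and at 7.36, 7.74 and 7.50, within or near the range of uninjured skin. CDH13, an adhesion protein of vessels and muscle, CRABP1, a retinoic acid binding protein, and C1QTNF6, a secreted C1q-like protein, were lower at 14 than at 21 dpi by limma (-2.08, -1.73 and -1.56). EMILIN1, a glycoprotein of elastic fibres, was 4.90, 4.73 and 4.74 at 14 dpi and 5.59, 5.83 and 5.67 at 21 dpi. In all, 14 genes with a symbol were called between 14 and 21 dpi, 5 higher and 9 lower (0.0579% and 0.104% of all genes). Of the 8 named in this paragraph, none kept the call without 14 dpi replicate 1 or 3 or 21 dpi replicate 1 or 3, 1 (C1QTNF6) without uninjured replicate 2, 2 (CDH13 and C1QTNF6) without 21 dpi replicate 2 and 4 without 2 dpi replicate 2.

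**Figure D5:**
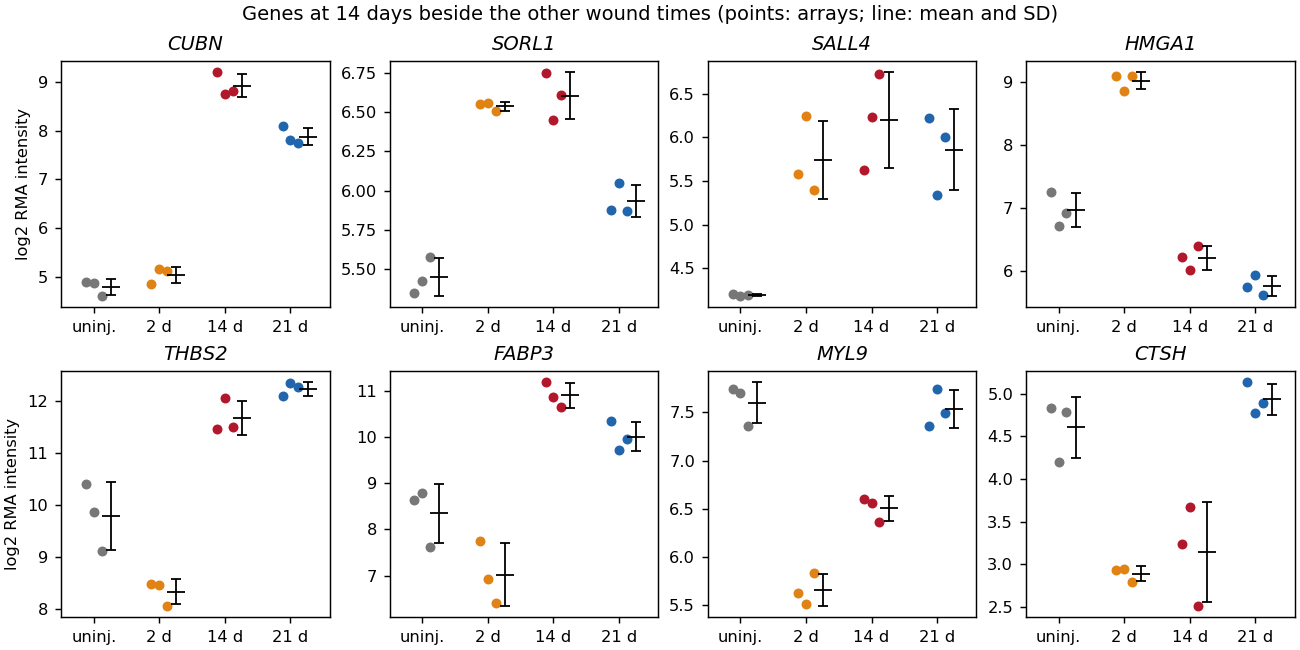
Levels (log2 RMA intensity, vertical axis) of 8 genes in each of the 12 arrays, by uninjured skin and 2, 14 and 21 dpi (horizontal axis), with mean and SD in black beside the points. CUBN peaks at 14 dpi, HMGA1 is near 9 at 2 dpi and under 6.5 at 14 dpi, and CTSH and MYL9 are lower at 14 than at 21 dpi.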

How the data were processed

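RNA from axolotl skin was measured on 12 1-colour Affymetrix arrays, 3 per group. The authors deposited log2 values, background corrected, normalised and summarised per probe set by RMA. The methods name R/Bioconductor and the labels Affymetrix Expression Console, with no version in either source. Of 20080 probe sets 45 controls were left out. For the other 20035, limma 3.58.1 under R 4.3.3 estimated 4 group means (lmFit, then eBayes) with 8 residual and 2.43 prior degrees of freedom and no low-signal filter, and two-sided p-values were adjusted per comparison by the Benjamini-Hochberg procedure. Comparisons with 14 dpi as a member share its arrays, and those with uninjured skin share the uninjured arrays. The array annotation gave 10951 probes 1 symbol, 0 several and 9084 none. Of 1740 genes with several probes 166 were called, 3 of them with another probe called in the opposite direction. For 128 of the 166 no other probe was called, so the call rests on 1 probe. Among these were FN1, TNC, COL5A1, THBS2, FBN2, LAMA1, DKK3, EFEMP1 and SALL4. Others were POLA2, MCM7, CYCS, LDHB, ABCA1, PSAP, ATP6V1A, NPY, RHOA, F13B, ITGB5 and SORL1.

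The comparison, the 36 gene lists and the tests were chosen with earlier results of these data known. Lists are described by counts and medians. Of the genes that could be named (the 20 largest changes each way without overlap, the 5 smallest adjusted p-values per list, all collagens, genes the study names, the 10 largest differences each way from 2 and 21 dpi, and bright cell type markers), some were left out after their values were seen. ABCA1, CYP7B1 and list members named beyond this rule, such as the pump subunits, PLOD1, PLOD2, AIF1, LYZ, MCM7 and FEN1, were also chosen after their values were seen. The fit was tested on simulated data. Alternatives were filters on low signal, array medians or quantiles, a trend, array weights, fewer groups, a replicate block, control probe sets kept in, a stricter threshold, the mean of a gene's probes, muscle markers as a covariate, arrays left out and, added after seeing the data, the poly-A controls as a covariate and arrays of the groups not compared left out. Precision is limited by the number of arrays. p-values measure the spread between these arrays.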

Additional observations from a re-analysis of the deposited data

Results flagged for a closer look

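Of the genes called against uninjured skin both at 2 and at 14 dpi, 15 moved in opposite directions. For all 15 the difference between the time points was called by limma, but the selection made this nearly certain. The difference adds up 2 opposite changes that were each called with the same standard error, so it is no further support. Of the 15, between 5 and 11 kept both calls when single arrays were left out, the fewest without uninjured replicate 1 or 2, and FSTL1, LRRC32, THBS2 and THBS3 kept them without any 1 of the 12 arrays. The comparisons share the uninjured arrays, so the difference equals that between the wounds. Among 12 genes lower at 2 dpi and higher at 14 dpi were matrix genes, with 14 minus 2 dpi at 3.05 for COL5A1, 3.34 for THBS2, 2.79 for THBS3, 1.08 for EMILIN1, 4.10 for OLFML2B, a secreted matrix protein, and 2.00 for FSTL1. OLFML2B had levels of 7.09, 6.79 and 6.10 in uninjured skin, 4.03, 4.0 and 3.96 at 2 dpi and 7.67, 8.98 and 7.63 at 14 dpi. It thus fell to the lower quartile of the arrays at 2 dpi and passed uninjured skin in every array at 14 dpi. Of membrane proteins, the difference was 2.13 for the hyaluronan receptor LAYN, 1.52 for the growth factor receptor IGF1R and 1.93 for LRRC32, which holds latent TGF-beta. It was 3.88 for FABP3, 2.66 for PRICKLE1 and 1.78 for GGCX, the vitamin K-dependent carboxylase. The reverse, higher at 2 and lower at 14 dpi, was measured for HMGA1 (-2.82), TACC2, a centrosome-associated protein (-1.39), and the carboxypeptidase CPM (-1.22). TACC2 had levels of 7.86, 7.15 and 7.18 in uninjured skin, 8.17, 7.95 and 8.08 at 2 dpi and 6.68, 6.67 and 6.67 at 14 dpi.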

How the results depend on the processing

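All 1427 probes called against uninjured skin kept their direction in every alternative in which they were tested, but the selection largely fixed this. Of them 1424 had no overlap between the groups, so leaving out an array could not turn their sign. A threshold, filter, trend, replicate block or fit of fewer groups left the change itself as it was. Fewer kept their call: 315 with only the groups compared in the fit, 977 with the replicate block and 987 with the muscle covariate. With the poly-A covariate, chosen after seeing the data, 1291 kept it. Calls against uninjured skin numbered 3123 with array weights, 324 with only the groups compared, 432 at an adjusted p under 0.01, and 701 to 2171 with single arrays left out. With only the groups compared, higher genes numbered 6 for collagens, 7 for macrophage and 9 for lysosome genes, and lower genes 1 each for the mitosis, replication and respiratory lists. Of 123 genes named and called, 91 were called without any 1 of the 6 arrays. None changed sign under an alternative, which for arrays left out again follows from the lack of overlap. Calls against 2 dpi numbered 589 with only the groups compared, 544 at an adjusted p under 0.01 and 817 with the muscle covariate. They numbered 574 with the poly-A covariate and 925 without both arrays apart in muscle markers. With single arrays of 2 or 14 dpi left out they numbered 777 to 1572, and without uninjured replicate 3 they numbered 1745. Calls against 21 dpi numbered 13 with probes below the median left out, 2632 with array weights, 1 with the muscle covariate, 786 without both arrays apart in muscle markers and 0 to 471 with single arrays left out. They numbered 0 with only the groups compared, with the replicate block and at an adjusted p under 0.01. The causes were not tested. Changes that were not called turned sign: COL12A1 was -0.22 with array weights, -0.60 without both arrays apart in muscle markers and -0.44 to 0.51 with single arrays left out. In the same order TP63 was 0.25, 0.56 and -0.33 to 0.41, and EPCAM 0.10, 0.14 and -0.12 to 0.069. KRT8 was -0.32 as the mean of its probes and -0.059 to 0.30 with single arrays left out.

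Same-numbered uninjured and 14 dpi arrays deviated from their group means with correlations of 0.207, 0.0484 and 0.232 over probes. Taken from means of 3 arrays, such deviations cannot decide whether the numbers pair the arrays. The main fit did not pair them. With the replicate number as a block, 1023 probes were called against uninjured skin and 1098 against 2 dpi. Among the 14 dpi arrays, uninjured replicates 1 and 3 correlated best with their own number, whereas the deviation of uninjured replicate 2 correlated at 0.146 with 14 dpi replicate 3. Low-signal filters, median or quantile scaling, a trend and control probe sets kept the counts against uninjured skin between 1299 and 1491. Genes near the lower quartile, such as COL8A1, CTSH and EMILIN1, are limited by background.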

Other observations

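Other gene lists are given with their shares, beside 5.29% of all genes higher and 2.75% lower. Of 57 cytoskeleton genes 6 were higher (10.5%) and none lower by limma (15 and 1 before adjustment). Among the higher were the leukocyte actin bundler LCP1 (1.03) and the GTPase RHOA (0.55), and 3 were higher without uninjured replicate 2 or 14 dpi replicate 3. Of 26 complement and coagulation genes 4 were higher (15.4%) and 1 lower (3.85%). The coagulation inhibitor TFPI (1.07) and the transglutaminase subunit F13B (1.68) were among the higher. Of 84 genes of folding and secretion in the endoplasmic reticulum 2 were higher and 2 lower, a share of 2.38% each way beside 5.29% and 2.75% of all genes. Before adjustment 16 were higher and 5 lower. Of 47 proteoglycan genes 4 were higher (8.51%), among them the syndecan SDC2 (1.00), and 2 were higher without uninjured replicate 1 or 2 or 14 dpi replicate 3. Of 31 integrin and adhesion genes 1 was higher (3.23%), the integrin chain ITGB5 (1.17), which was not called without uninjured replicate 1.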
